A study of Drosophila melanogaster with 36 samples.

Results

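The transcripts described here set the females of both inversion strains apart from the females of every other strain. They are 60 of the 16637 transcripts on the array. Each transcript was scored on the log2 intensities of the 18 female arrays for 5 splits of the strains: REC against the rest, SIM1 against the rest, INV1 and INV2 against the rest, REV1 and REV2 against the rest, and red-eyed against white-eyed strains. The score was the gap, the distance between the lowest array of one side and the highest array of the other, taken in the direction that gave the larger value. Each transcript was assigned to the split of its largest gap, and the members are the 60 with the largest gap in the split of INV1 and INV2 against the rest. The female intensities thus chose the members, so their female levels, and their differences from males, are given as a description and not as a test. The 18 male arrays took no part in the choice, and the strain contrasts were tested there. Per the study's methods, the progeny of the crosses of a strain were separated by sex. Males and females of a strain thus share crosses, and the males are not an independent repeat of the females.

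The arrays measured RNA of *Drosophila melanogaster*, pooled from 50 virgin flies per sample aged between 5 and 7 days, with replicates A, B and C for each sex of each of 6 strains (36 arrays). All strains carry *w1118*, an allele of *white* that leaves the eyes without pigment unless a marker gene restores it. INV1 and INV2 carry *In(2R)51F11-56E2*, an inversion with breakpoints in bands 51F11 and 56E2 of the right arm of the second chromosome, made by heat-shock-induced recombination between inserted transposable elements that bear FRT sites (targets of the FLP recombinase). REC carries both elements in *cis*, as before the induction, with the standard gene order. INV1, INV2 and REC flies have red eyes. SIM1 went through the induction without inverting, and in REV1 and REV2 the inverted segment was turned back. These 3 strains have the standard order, derivatives of both elements (*P{RS3r}* and *P{RS5r}*) and white eyes. The inversion was represented by 2 strains, and the arrays of a strain measure the spread between samples of that strain only.

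An inversion turns round the order of the genes between its breakpoints and leaves their sequence in place. Its breaks separate genes from neighbours and regulatory sequences, so changes in transcript level near breakpoints are a known possible effect of such a rearrangement. Whole adult flies mix many tissues, and in *Drosophila* the germ line and the reproductive tract account for much of the difference between the sexes. Because whole flies were pooled, fewer cells of a type and less RNA per cell cannot be told apart in any of the differences below. The deposited table names transcripts by FlyBase identifier only. None of the 60 members could be paired with a gene (0 of 60, against 44 of all 16637 identifiers, in a RefSeq gene table of another annotation release). Their functions, positions relative to the breakpoints and sequences are therefore not given, and markers of sex, tissue or eye pigment could not be looked up to check the labels.

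Members were higher in the inversion strains in 57 cases and lower in 3. Without regard to the assignment, 92 transcripts had INV and other female arrays that did not overlap (0.553% of those on the array). Of these, 86 (0.517%) were higher and 6 (0.0361%) were lower in INV females, so the excess of higher transcripts held before the list was limited to 60. The rule used these arrays, and nothing further is read from the counts. Gaps among the members ran from 0.0211 to 0.221 on the log2 scale with a median of 0.0693, and 18 members had a gap above 0.1. The last transcript included had a gap of 0.0211 and the first left out a gap of 0.0209, so the end of the list marks no step in the values.

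The difference between strain means was larger than the gap. The mean of INV1 and INV2 differed from the mean of the 4 other strains by a median of 0.44 (1.36-fold) in the members' direction, between 0.21 and 0.80, and no member differed by more than 1. The median female difference over all 16637 transcripts was -0.00, but there the differences kept their sign. They were not turned to the direction of each transcript's gap, so -0.00 is not a background for the size of 0.44. The median SD between arrays of one strain was 0.09 over the members and 0.09 over all transcripts in females.

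FBtr0082548 had the largest gap. Its log2 intensity in females was 11.01, 10.91 and 10.85 in INV1 and 11.02, 10.82 and 10.72 in INV2. It was 10.50, 10.37 and 10.36 in REC, 10.09, 10.31 and 9.85 in SIM1, 9.88, 10.12 and 9.76 in REV1, and 10.07, 10.05 and 10.43 in REV2. All 6 INV arrays thus lay above the 12 others, REC and 1 REV2 array came next, and INV exceeded the rest by 0.74 (1.67-fold) on average. In males the same transcript overlapped: INV1 was at 11.88, 11.93 and 12.47 and INV2 at 12.39, 12.30 and 12.42. Male values were 12.51, 11.74 and 12.50 in REC, 12.62, 12.17 and 12.21 in SIM1, 12.03, 11.63 and 11.92 in REV1, and 11.74, 11.96 and 12.08 in REV2. The highest male array was one of SIM1, and the male difference of 0.14 ± 0.13 (SE, n = 6 against 12 arrays) did not pass the test (limma, adjusted p = 1.0).

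FBtr0072130 followed, with female INV values of 11.67, 11.45 and 11.55 in INV1 and 11.59, 11.37 and 11.39 in INV2. The other females were at 11.15, 11.12 and 11.12 in REC, 11.02, 11.09 and 11.11 in SIM1, 11.04, 11.02 and 10.83 in REV1, and 11.07, 11.03 and 11.09 in REV2. Here the non-inverted strains ranged from 10.83 in REV1 to 11.15 in REC, and INV exceeded them by 0.45 (1.36-fold) on average. In males REC held the 2 highest values, at 13.46, 12.94 and 13.35, with INV1 at 12.73, 12.84 and 13.18 and INV2 at 13.25, 13.12 and 13.22. SIM1 males were at 13.19, 13.06 and 12.55, REV1 males at 13.04, 12.98 and 13.01, and REV2 males at 12.84, 13.01 and 13.08, so the groups overlapped and the male INV difference was 0.01 ± 0.10 (SE, limma adjusted p = 1.0).

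The 3 members that were lower in INV females were FBtr0089322, FBtr0076588 and FBtr0076735. FBtr0089322 showed the largest female difference of these, -0.80 (0.57-fold): INV1 was at 9.04, 9.22 and 9.19 and INV2 at 9.13, 9.25 and 9.39. The other females were at 9.97, 9.84 and 9.85 in REC, 9.73, 9.80 and 9.56 in SIM1, 10.58, 10.27 and 10.46 in REV1, and 10.01, 10.34 and 9.64 in REV2, so REV1 lay farthest from INV. INV males of this transcript, at 9.80, 9.88 and 10.10 in INV1 and 10.02, 10.06 and 10.09 in INV2, lay within the range of the other males, 9.41 to 10.46, with a difference of 0.04 ± 0.10 (SE, limma adjusted p = 1.0).

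FBtr0076588 differed less in females, by -0.30 (0.81-fold), and its INV arrays lay close together, at 9.62 on all 3 INV1 arrays and at 9.58, 9.64 and 9.60 in INV2. REC females were at 9.76, 10.02 and 9.73, SIM1 at 9.95, 10.19 and 9.90, REV1 at 10.03, 9.68 and 9.93, and REV2 at 9.75, 10.08 and 9.91. In males REC was lowest on average (11.09, 11.27 and 11.07), INV2 followed (11.25, 11.41 and 11.23), and INV1 was spread out (11.64, 11.74 and 10.91). White-eyed males were at 11.22, 11.57 and 12.30 in SIM1, 11.66, 11.49 and 11.70 in REV1, and 11.61, 11.58 and 11.40 in REV2. The male INV difference was -0.13 ± 0.14 (SE, limma adjusted p = 1.0), in the female direction, with overlapping arrays.

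**Figure D1:**
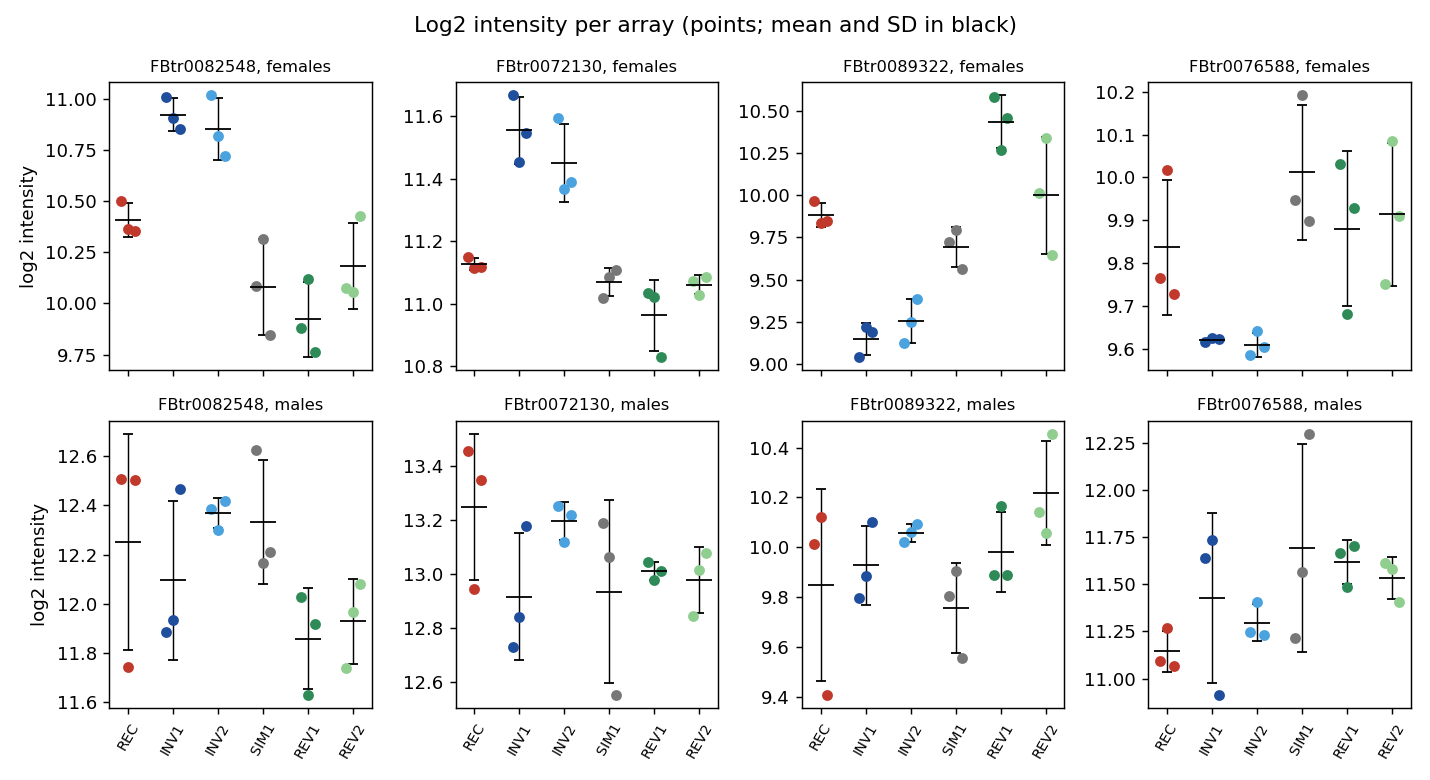
Log2 intensity of the 2 members of largest gap higher in INV females (FBtr0082548, FBtr0072130) and the 2 lower (FBtr0089322, FBtr0076588), by strain, females above and males below; points are arrays, the black bar is the mean and the whisker the SD of 3 arrays, and the vertical axes do not start at 0. In females the 6 INV arrays stand clear of the 12 others, and in males the strains overlap.

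INV1 and INV2 were alike in this respect but not equal. Among the 57 members higher in INV, the INV1 mean exceeded the INV2 mean in 43, by a median that put INV2 at -0.04 against INV1. The array of INV that came closest to the others was INV2 C in 26 members and INV2 B in 18. On the other side, the nearest array was REV2 C in 14 members, REC A in 11, REC C in 11 and REC B in 8. Because a few arrays bound so many gaps, the list depended on them: 29 of the 60 members were chosen again without female INV2 C and 35 without female REV2 C, 48 to 59 without any 1 of the other arrays except REV1 C, and all 60 without REV1 C. Chosen without each female array in turn, the list held 53 to 58 transcripts higher in INV.

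The other 4 strains did not share a common level. Of the 57 members higher in INV, REC was the highest of the other strains in 41, REV2 in 11, SIM1 in 4 and REV1 in 1, while REV1 was the lowest in 30 and SIM1 in 23. Over all 60 members, taken in the female direction, INV exceeded REC by a median of 0.33 and the white-eyed strains by 0.47. REC in turn exceeded the white-eyed strains by 0.13, with that sign in 55 of 60. These contrasts share arrays and use the values that chose the members, so they describe an order of levels in females: both INV strains above, then REC, then the white-eyed strains. Against the mean of the 6 strains, the median member stood at 0.32 in INV1, 0.26 in INV2, -0.04 in REC, -0.12 in REV2, -0.18 in SIM1 and -0.22 in REV1.

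**Figure D2:**
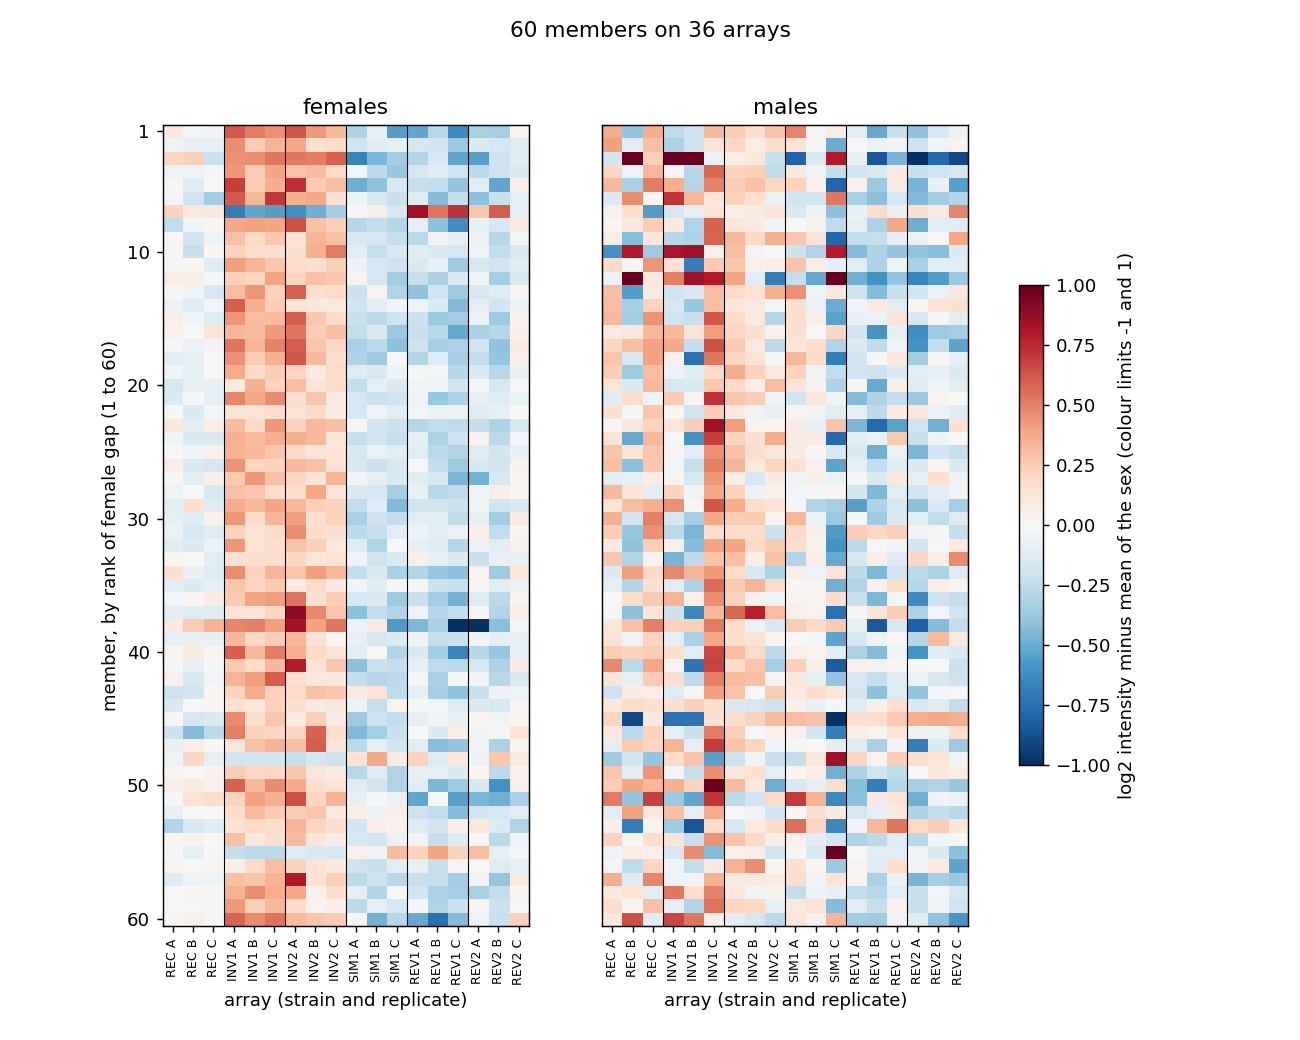
Log2 intensity of each of the 60 members on each of the 36 arrays, minus the member's mean over the arrays of that sex (colour, values beyond -1 or 1 drawn at the limit); members run from the largest gap (rank 1) down, arrays are ordered by strain. Female INV1 and INV2 arrays form a block that is high in 57 members and low in 3, and in males the pattern is broken by single arrays.

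Some male arrays stood apart before any contrast. Replicates A and B of INV1, replicate B of REC and replicate C of SIM1 deviated together from the male median over all transcripts, with correlations of 0.76 to 0.92 between any 2 of them. Male REV1 A stood apart otherwise: the 200 transcripts with the strongest female bias were 1.01 higher there (median, log2) than the male mean, against -0.13 to -0.01 on the other male arrays. The member values moved with the first of these. Compared with the other male arrays of their strain, 51 of 60 members were lower on average on those 4 arrays, by a median of 0.39 over all 60 members, 37 were lower on every one of them and 7 were higher on every one. This was not particular to the members. Relative to the male mean, the 200 transcripts with the largest male excess had medians of -0.46 on INV1 A, -0.33 on INV1 B, -0.31 on REC B and -0.53 on SIM1 C. On the other male arrays these medians were 0.04 to 0.18. The median of the 57 higher members was -0.05 on REC B against 0.13 and 0.25 on the other REC males, 0.02 and -0.21 on INV1 A and B against 0.43 on INV1 C, and -0.25 on SIM1 C against 0.03 and 0.09 on the other SIM1 males. Without male REV1 A the male median difference of INV from the rest stayed at 0.17.

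In males most members had the same sign as in females, and none was called with arrays weighted equally. The mean of INV1 and INV2 minus the mean of the other 4 strains had the female sign in 54 of 60 members, against 47% of all transcripts. The median in the female direction was 0.17 (1.13-fold), between -0.23 and 0.69. Over all transcripts the median was -0.00, but there the differences kept their sign and were not turned to the female direction. With limma, 0 of 60 members passed an adjusted p of 0.01 (background 0.0301%, 5 transcripts), and the smallest adjusted p of a member was 0.22. At an unadjusted p under 0.05, 17 members differed in the female direction, where 1.93% of all transcripts had the same sign in both sexes and such a p, and none differed in the opposite direction. By the one-way comparison of the methods, 12 members had an unadjusted p under 0.05 (background 2.4%) and 0 were called (background 0%). Array weights count an array more the closer it lies to the others of its strain. With them 16 members were called, 14 of them in the female direction, where 11.1% of all transcripts were called. The estimate of these weights stopped before its tolerance was reached, at 9.53 for INV2 A and 0.0997 for SIM1 C. The deviating arrays were not all counted less. REC B had 0.163, but INV1 A and B had 1.32 and 0.46 against 0.15 for INV1 C, so the INV1 estimate leaned on its deviating arrays. Another estimate of the weights, chosen after seeing the data, called 7 (2.73% of all transcripts). No member had male INV arrays clear of the other male arrays in the female direction (background 0.012%).

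The members are not 60 separate pieces of evidence, because they varied together. Within strains, the deviations of the 57 higher members from their strain mean had a mean pairwise correlation of 0.24 in females and 0.38 in males (18 arrays each), against 0.00 over all transcripts in either sex. Pairs differed widely: 21.6% in females and 50.4% in males had a correlation above 0.5, and the lowest were -0.75 and -0.95. The male values include the shared shift of the 4 deviating arrays. A single array that was high or low could therefore move many members at once, though not all in one direction. Left out 1 at a time, the male arrays changed the count with the female sign between 42 and 56 and the median between 0.08 and 0.22, the lowest median being without INV1 C. The count at an unadjusted p under 0.05 ran from 9 without INV2 A to 23 without INV1 B. The share of all transcripts in each of these fits is not given.

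Without the 4 deviating male arrays, 4 INV and 10 other male arrays were left, with a single INV1 array, C, which was the highest of all male arrays for the members. The median difference then rose to 0.30 with the female sign in 56 of 60, and 42 members had an unadjusted p under 0.05 in that direction, against 8.34% of all transcripts with one sign in both sexes. In 3 members the male groups no longer overlapped (background 0.757%). Still 0 members were called, and the smallest adjusted p was 0.049.

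The 2 members of lowest p in the male contrast of INV with the rest were FBtr0074870 and FBtr0070856, both higher in INV. FBtr0074870 was at 11.01, 10.56 and 11.17 in INV1 males, 10.92, 10.73 and 10.69 in INV2 males and 10.67, 10.85 and 10.91 in REC males. White-eyed males were lower, at 10.53, 10.26 and 10.21 in SIM1, 10.002, 10.24 and 10.38 in REV1, and 10.13, 10.40 and 10.21 in REV2. Every red-eyed male array thus lay above every white-eyed one, and INV did not stand apart from REC. The difference of INV from the rest was 0.45 ± 0.09 (SE, limma adjusted p = 0.22). Its female values were 9.45, 9.40 and 9.47 in INV1, 9.41, 9.32 and 9.31 in INV2, 8.97, 9.24 and 8.95 in REC, 8.84, 8.96 and 8.64 in SIM1, 8.88, 8.90 and 8.86 in REV1, and 9.04, 8.88 and 8.93 in REV2. In females REC lay with the white-eyed strains for this transcript, apart from replicate B.

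FBtr0070856 was at 12.04, 11.68 and 12.01 in INV1 males and 11.62, 11.47 and 11.56 in INV2 males, with REC at 11.61, 11.65 and 11.40. SIM1 males were at 11.27, 11.45 and 11.43, REV1 at 11.27, 11.24 and 11.40, and REV2 at 11.29, 11.49 and 11.35. INV1 lay above all other males, INV2 lay among REC and the top of the white-eyed arrays, and the difference of INV from the rest was 0.33 ± 0.07 (SE, limma adjusted p = 0.22). The lowest male difference belonged to FBtr0087905, a member higher in INV females by 0.31, whose male difference was -0.23 ± 0.18 (SE, limma adjusted p = 1.0).

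INV males were also set against REC and against the white-eyed strains separately. No difference between INV and REC males was detected in the members. The median in the female direction was -0.01, between -0.35 and 0.39, with a median SE of 0.17 for a single member, and 30 of 60 had the female sign (31 differences were above 0, as were 47.3% over all transcripts). With limma 0 were called (background 0.012%) and 0 had an unadjusted p under 0.05 (background 4.8%). Of lowest p were FBtr0070856, higher in INV by 0.18 ± 0.10, and, among the lower members, FBtr0071675, at -0.14 ± 0.08, and FBtr0072130, at -0.19 ± 0.14 (SE, limma adjusted p = 0.95 each). With array weights 1 member was called (0.138% of all transcripts). Left out 1 at a time, arrays moved the median of this contrast between -0.09 and 0.05, and without the 4 deviating arrays it was 0.07 with 39 of 60 in the female direction. INV males exceeded white-eyed males by a median of 0.22, with the female sign in 55 of 60 (54 differences were above 0, as were 48% over all transcripts). Left out 1 at a time, arrays moved this median between 0.11, without INV1 C, and 0.28, without INV1 B, and it was 0.36 without the 4 deviating arrays. In the female direction 24 members had an unadjusted p under 0.05, all of them higher in INV (background 2.86%). With limma 0 were called (background 0.0541%; with array weights 23, background 15.1%), and 1 had an adjusted p under 0.05 (background 0.12%). That was FBtr0074870, with 0.58 ± 0.10 (SE, limma adjusted p = 0.027). FBtr0070856 followed with 0.38 ± 0.07 (SE, limma adjusted p = 0.073).

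REC males exceeded white-eyed males in much the same way. The median was 0.23, and 53 of 60 members had the sign of the female gap (52 differences were above 0, as were 51.4% over all transcripts). At an unadjusted p under 0.05, 18 members were higher in REC (background 5.73%) and 1 was lower (background 3.91%), all in the female direction. With limma 0 were called (background 0.0421%; with array weights 4, or 0.998% of all transcripts), with a smallest adjusted p of 0.22, again FBtr0074870 (0.55 ± 0.12, SE). FBtr0089477 had the next lowest p among the higher members, with REC males at 11.04, 11.19 and 11.12 against 10.10 to 10.97 in white-eyed males. Among members lower in REC males, FBtr0076588 differed by -0.47 ± 0.19 (SE, limma adjusted p = 0.47). The 3 contrasts share arrays and are not separate tests of one another.

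The order of the strain levels thus differed between the sexes as a description. In females INV1 and INV2 exceeded REC by medians of 0.36 and 0.30, with the female sign in 60 of 60 members each, as the rule required of their arrays. In males the same medians were 0.01 and -0.04, with 30 and 26 of 60. Against the white-eyed strains the female medians were 0.50 and 0.43 and the male medians 0.17 and 0.24. Without the 4 deviating male arrays, the remaining INV1 array exceeded REC by a median of 0.23 and the 3 INV2 arrays stood at -0.07 against REC. The excess over REC without those arrays thus rested on INV1 C. Against the white-eyed strains the medians were then 0.51 for INV1 C and 0.23 for the 3 INV2 arrays. For INV2, 50 of 60 members had the female direction there. Whether the INV and REC difference of females differed from that of males was not tested, because the female values chose the members.

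**Figure D3:**
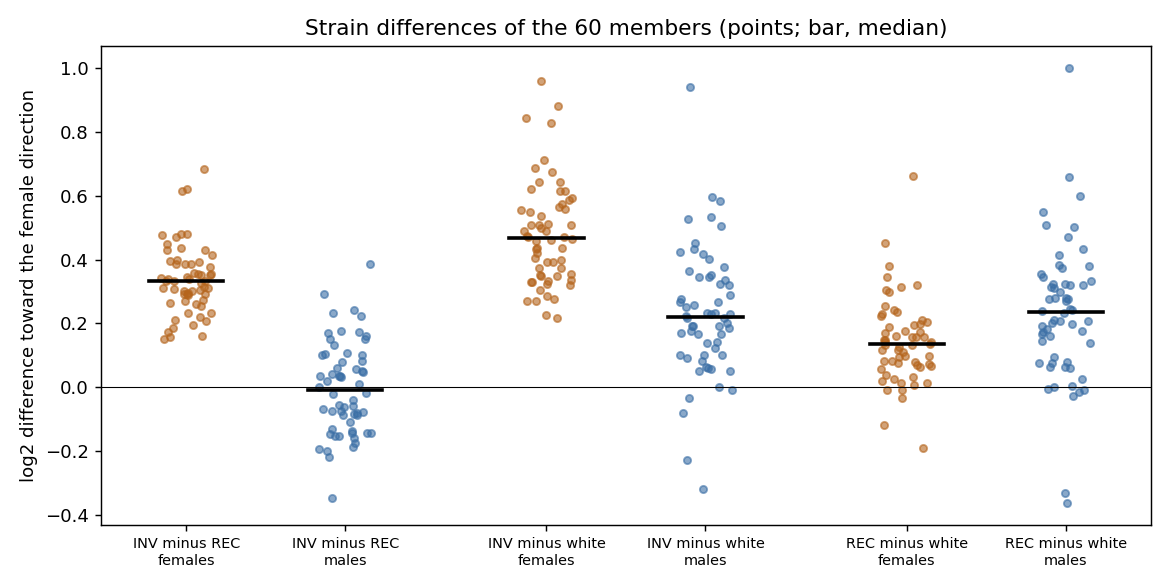
Log2 difference of each of the 60 members (points) between INV and REC, INV and the white-eyed strains, and REC and the white-eyed strains, in females (brown) and males (blue), signed so that the direction of the female gap is above 0; the bar is the median. The female medians are 0.33, 0.47 and 0.13, and the male medians -0.01, 0.22 and 0.23; the female points were used to choose the members and the contrasts share arrays.

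Between INV1 and INV2 males no member passed the threshold with arrays weighted equally. With limma 0 of 60 were called (background 0.018%; with array weights 11, when 41.0% of all transcripts were), and 1 had an adjusted p under 0.05 (background 2.14%). At an unadjusted p under 0.05, 1 member was higher in INV2 (background 16.1%) and 6 were lower (background 15.7%). The member with an adjusted p under 0.05 was FBtr0071675, at 10.86, 10.93 and 10.86 in INV1 males against 10.55, 10.53 and 10.49 in INV2 males, a difference of -0.36 ± 0.09 (SE, limma adjusted p = 0.0496). REC males were at 10.80, 10.88 and 10.85 for this transcript and REV2 males at 10.54, 10.57 and 10.45, so INV1 sat with REC and INV2 with REV2. FBtr0273408 lay in the other direction, at 9.84, 9.41 and 10.38 in INV1 males and 10.63, 10.82 and 10.36 in INV2 males (0.73 ± 0.24, SE, limma adjusted p = 0.075). Its female INV2 values, 9.46, 9.05 and 8.85, also exceeded those of INV1, 8.71, 8.69 and 8.77.

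**Figure D4:**
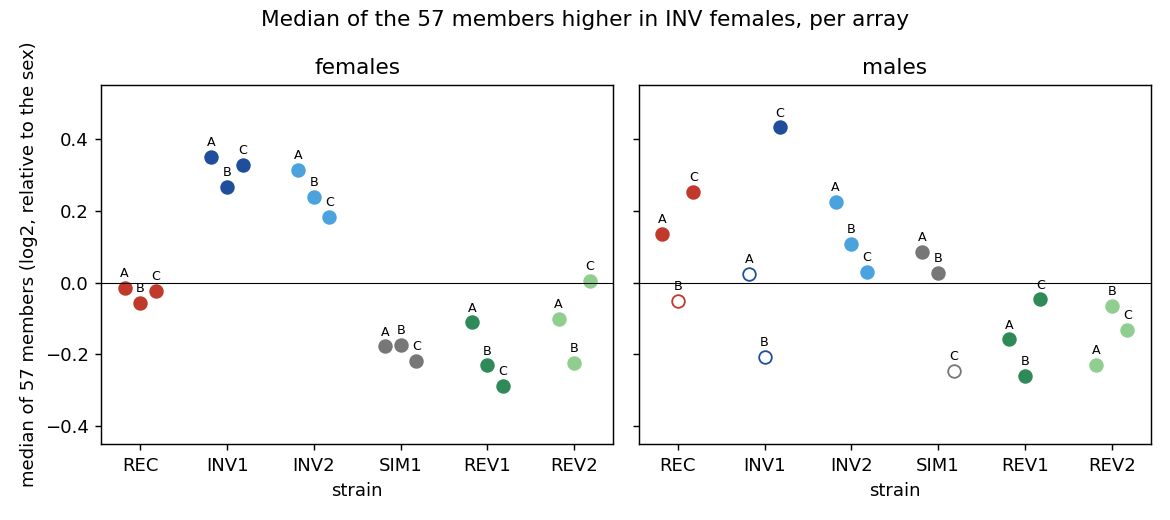
Median over the 57 members higher in INV females of the log2 intensity minus its mean over the sex, per array, by strain in females (left) and males (right); letters are replicates and open circles the 4 deviating male arrays. Female INV arrays lie between 0.18 and 0.35 and the other females between -0.29 and 0.00, and male INV arrays range from -0.21 to 0.43, across the other males.

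The members were higher in males, and within a limited range. This contrast uses the female arrays that chose the members, so it is given as a description. The mean of the 6 male strain means exceeded the female one in 59 of 60 members and in 61.2% of all transcripts (58 and 55 members after scale and quantile normalization over all arrays), and the other member, FBtr0076735, was higher in females. The median difference was 1.57 (2.97-fold), between -0.27 and 2.39, against 0.39 over all transcripts. That last shift depends on how the sexes are scaled. After these normalizations the median of all transcripts was -0.09 or -0.19 and that of the members 1.04 or 0.94, so that relative to all transcripts the members stood 1.18 higher in males as deposited and 1.13 higher under both alternatives.

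FBtr0080477 and FBtr0077394 had the largest sex difference among the members, 2.39 each. FBtr0080477 was between 8.36 and 8.80 in females and between 10.47 and 11.44 in males. FBtr0077394 ranged from 8.58 to 9.34 in females and from 11.09 to 11.80 in males. FBtr0076735, one of the 3 members lower in INV females, ranged from 9.06 to 9.72 in females and from 8.62 to 10.14 in males, with overlapping sexes and a difference of -0.27. Its highest male value came from SIM1 C, one of the deviating arrays.

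Of the 60 members, 57 had a male minus female difference from 1 to 2.5, a range that was set after the values had been seen and that held 20.8% of all transcripts (3465). None lay above 2.5, where 10.6% of all transcripts were. By bins, members made up 22 of 1954 transcripts from 1 to 1.5, 33 of 1164 from 1.5 to 2 and 2 of 347 from 2 to 2.5, and 3 of the 11416 transcripts under 1, which were 68.6% of all. The 200 with the largest male excess, 5.40 or more, held 0 members, had a median female INV difference of -0.00 with 98 of 200 higher in INV, and their medians per female array ran from -0.05 to 0.04 in INV and from -0.06 to 0.04 in the rest. Among the 200 with the largest female excess there were 0 members too, with a median of 0.03 and 123 of 200 higher in INV.

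The same range was less filled by the other splits of the female arrays. Chosen in the same way, the 60 transcripts of largest gap of REC against the rest had 13 in that range, those of SIM1 12, those of REV1 and REV2 18 and those of red against white eyes 42. Median sex differences of these lists were 0.10, -0.19, 0.62 and 1.44. No test was made of these counts, which come from lists chosen on the same female arrays. The 3408 transcripts in the range that were not members showed a slight shift of their own: their median female INV difference was 0.02, and 57.7% were higher in INV against 48.9% of all transcripts. The excess over the rest was thus small in the range as a whole and large in the members, which were selected for it.

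**Figure D5:**
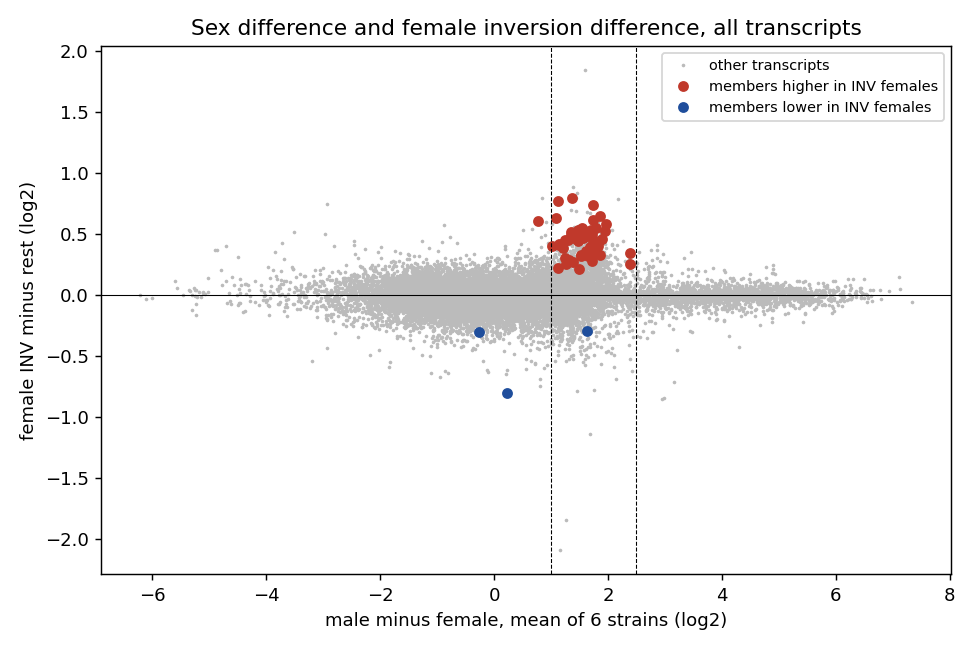
Female INV minus rest (vertical, log2) against male minus female averaged over the 6 strains (horizontal, log2) for all transcripts, with members higher in INV females in red and members lower in blue; dashed lines mark 1 and 2.5. Of the 60 members, 57 lie between the lines, and none to the right of 2.5.

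The levels of the members differed between the sexes accordingly. The mean log2 intensity of a member over all females ran from 8.02 to 12.95 with a median of 9.51, where the median transcript was at 10.38, and the median member stood at the 41.3rd percentile of the array. In males the range was 9.06 to 14.09 with a median of 11.10, against 10.95 for all transcripts, at the 53.0th percentile. Members were thus on the dim side in females and near the middle in males. Intensities of different probes are not compared here as amounts of RNA. In males the members also varied more between arrays of one strain, with a median SD of 0.18 against 0.15 over all transcripts.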

How the data were processed

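RNA of whole flies was hybridized to one-colour NimbleGen arrays by the manufacturer's service. Per the study's methods, the authors took the median of the log-transformed probes of a transcript and used limma's scale normalization between arrays. Background correction is not given in the sources used here. The deposited values are linear intensities of 16637 transcripts, from 135 to 54214, with 0 missing. Males had a median intensity of 1979 and females of 1339, and within a sex the sorted values are nearly equal on all arrays. Depth does not apply to arrays, and their number limits the precision.

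Strain, sex and replicate were taken from the labels. Values were converted to log2 with no pseudocount or filter. Male strain contrasts (18 arrays, 1 mean per strain) and the male minus female difference (36 arrays, 12 group means) were fitted on all transcripts with limma 3.58.1 in R 4.3.3 (lmFit, eBayes), and a Benjamini-Hochberg adjusted p under 0.01, the threshold of the methods, was a call. Differences are between means of strain means. The sex difference uses the female arrays that chose the members, so its values and calls are reported as a description and not as a test. Other steps used Python 3.11.15, numpy 2.4.6, pandas 2.3.3 and matplotlib 3.10.9. The members and lists were chosen with earlier results of these data known. The design text calls the replicates biological, and p-values measure only the spread between these samples.

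Transcripts named were the 2 of largest gap in each direction, and for each male contrast and the sex difference up to 2 per direction, by size among called members or else by lowest p. FBtr0076735 is named under the sex difference and as the third lower member. The gene table is of assembly Release 6, whereas the arrays follow annotation release 5.7. It held 0.264% of the identifiers, so genes are not named.

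Alternatives were scale and quantile normalization over all arrays, array weights (by limma's default estimate and, chosen after seeing the data, by its gene-by-gene update), a replicate block by letter, a robust fit with an intensity trend, a table without the dimmest 25% of transcripts, the one-way comparison of the methods, an adjusted p under 0.05, lists of 30 and 120 transcripts, leaving out the 4 deviating male arrays and leaving out each array. The contrast of REC with white-eyed males, the separate values of INV1 and INV2, the lists chosen without each female array, and the bins and lists of sex difference were chosen after seeing the data. Tested on simulated data with 200 of 16637 transcripts changed, the male contrast of INV with the rest recovered 41.5% of differences of 0.5 and 90.5% of differences of 1 (log2), with 3 and 5 false calls, and the sex difference recovered 98.5% of differences of 1, with 5 false calls. The simulated noise was normal and independent between transcripts and arrays, without deviating arrays, other strain differences or transcripts that vary together. These rates therefore need not hold for the real arrays.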

Additional observations from a re-analysis of the deposited data

How the results depend on the processing

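The 0 male calls depended mainly on weighting. With array weights 16 members were called for INV minus the rest, 1 for INV minus REC, 23 for INV minus white-eyed strains, 11 for INV2 minus INV1 and 4 for REC minus white-eyed strains, when 11.1%, 0.138%, 15.1%, 41.0% and 0.998% of all transcripts were called. With weights from a gene-by-gene update, added after seeing the data, they numbered 7, 0, 12, 8 and 1 in the same order. Of all transcripts, 2.73%, 0.018%, 4.72%, 34.9% and 0.349% were called with those weights, again in that order. At an adjusted p under 0.05, 1 member was called for INV minus white-eyed strains and 1 for INV2 minus INV1. Without the 4 deviating male arrays, 42 members had the female direction at an unadjusted p under 0.05 and 3 did not overlap. Among the 30 members of largest gap 9 had that p and 28 the female direction, and among 120 the latter was 102. At an adjusted p under 0.01 in the fit of both sexes, 59 members were higher in males, as were 57.8% of all transcripts. In females 1 was higher, as were 35.7% of all transcripts. These counts are a description and not a test, because the fit uses the female arrays that chose the members. Members higher in females numbered 2 after scale normalization, 3 after quantile normalization and 0 without the dimmest 25% of transcripts. The shares of all transcripts higher in females under these settings are not given. Both normalizations also lowered the median sex difference of all transcripts. The cause of the changes in counts was not tested, apart from the list sizes, which set their own counts.

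Left out 1 at a time, arrays gave 0 to 1 calls for INV minus white-eyed males (the 1 without INV1 B) and 0 in the other 4 male contrasts. They gave 9 to 23 members at an unadjusted p under 0.05 in the female direction, 42 to 56 with that direction, a median of 0.0777 to 0.22 and 0 not overlapping. The share of all transcripts in each of these male fits is not given, so the counts are not read as results about the members. In the fit of both sexes, leaving out 1 array gave 59 members higher in males and 1 higher in females, again as a description. With all arrays kept, 57.8% and 35.7% of all transcripts were called in those directions. Membership ran from 29 (without female INV2 C) to 60. It was 60 after scale and quantile normalization, which changed no direction of the male medians. Within a sex the sorted values were already nearly equal on all arrays. These normalizations could therefore hardly change the membership or those directions, and the result says little about dependence on processing.

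With the replicate block, 0 members were called in each male contrast and 17 had an unadjusted p under 0.05 for INV minus the rest. The share of all transcripts with the block is not given. In the fit of both sexes 59 and 1 were higher in males and females, again as a description. The block changed no call. Within a sex, same-letter arrays of different strains did not vary together consistently: their deviations correlated between -0.32 and 0.53 in females and between -0.89 and 0.66 in males. Whether a letter pairs the male and female samples of a strain was not tested. The main fit of both sexes treated them as unpaired. Precision is limited by 3 arrays per strain and sex, by 2 inversion strains, and by members that vary together. Differences of 0.5 would often be missed in males.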
